A study of Homo sapiens with 6 samples.

Results

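The ERBB receptors and the EGF-type growth factors that bind them were described in PC3 prostate cancer cells with and without GCNT1 overexpression. The group was set by gene symbol as 4 receptors (EGFR, ERBB2, ERBB3 and ERBB4) and 6 ligands (AREG, EREG, HBEGF, TGFA, BTC and NRG1). Of these 10 genes, 8 had a row among the 12703 genes of the count table, while ERBB4 and NRG1 had none and were left out. PC3 cells are an established line grown from the bone metastasis of a human prostate cancer. The comparison was between lines stably overexpressing GCNT1, the enzyme that adds the core 2 branch to O-glycans, and lines given a control lentivirus (n = 3 each). The labels call the samples biological replicates, and the sources used here do not say whether a line was 1 clone or a pool. Both groups carry a lentiviral insert and grew from the same parental line, so they differ by the insert and by the history of each transduced line, which cannot be told apart here.

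ERBB receptors are tyrosine kinases that sit in the plasma membrane and pair with one another once a ligand is bound. ERBB2 has no known ligand of its own and acts as the partner of the others, and ERBB3 has little kinase activity and passes the signal on through its partner. The ligands are made as membrane-bound precursors, and proteases of the ADAM family cut them free. AREG and TGFA bind EGFR alone, EREG, HBEGF and BTC bind EGFR and ERBB4, and the neuregulins bind ERBB3 or ERBB4. In epithelial cells, prostate included, the activated receptors feed the RAS-ERK and PI3K-AKT pathways that drive growth and survival.

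The libraries held 11392213 to 13825704 counted reads. GCNT1 itself had 9, 13 and 8 reads in controls and 13, 16 and 35 with overexpression, and was called higher (log2 fold change 0.98, edgeR adjusted p = 0.0362). Every gene of the deposited table had at least 1.01 CPM by raw library totals in 3 or more libraries, and GCNT1 reached this only through the overexpressing libraries, so its call is not independent of that limit. This check of the targeted gene also rests on few reads. Without overexpression replicate 3 the log2 fold change was 0.49 and GCNT1 was not called (edgeR adjusted p = 0.269), and the call was also lost without control replicate 1, without control replicate 3 and in DESeq2 (adjusted p = 0.0920, 0.0944 and 0.0821). Of 7 epithelial markers 6 had a row, and their summed level was 845 to 898 CPM (counts scaled to a common library size by TMM factors) in controls and 692 to 805 CPM with overexpression. The sum was carried by keratins and its members went both ways, with KRT19 at 369 against 230 CPM and CDH1 (log2 fold change -1.71) called lower, KRT7 at 26.0 against 81.7 CPM called higher, and EPCAM at 5.54 against 5.91 CPM, not called. All 4 mesenchymal markers had a row, with a summed level of 2523 to 2611 CPM and 2134 to 2158 CPM in the same order. Here FN1 was called lower, at 1247 against 525 CPM, while VIM and CDH2 passed the adjusted p threshold alone and were higher, at 1127 against 1390 CPM and 135 against 176 CPM, and ZEB1 passed it alone and was lower, at 64.5 against 56.0 CPM. None of 4 leukocyte markers had a row, and of 3 endothelial markers only PECAM1 did, at 1.43 to 1.95 CPM in controls and 3.93 to 5.10 CPM with overexpression. The part of these markers in the results below was not tested.

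All calls among the members were in ligands. None of the 3 measured receptors was called in edgeR, limma-voom or DESeq2, though 2 had an unadjusted edgeR p under 0.05. In edgeR and limma-voom 4 of the 5 measured ligands were called, AREG and BTC lower and TGFA and EREG higher in GCNT1 overexpressing cells. DESeq2 did not call EREG, which had a row only through the overexpressing libraries. A gene was called when its Benjamini-Hochberg adjusted p in edgeR's quasi-likelihood test was under 0.05 and its log2 fold change was at least 0.58 in size, a fold of 1.49. By this rule 19.3% of all 12703 genes were called, 8.28% higher and 11.1% lower. The 4 of 8 members called therefore stand beside a background in which calls were frequent, and the adjusted p threshold alone was passed by 57.6% of all genes. Whether the receptors and ligands differ from each other as classes was not tested. RNA was taken from whole cultures, so fewer cells expressing a gene and less RNA per cell cannot be told apart.

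**Figure D1:**
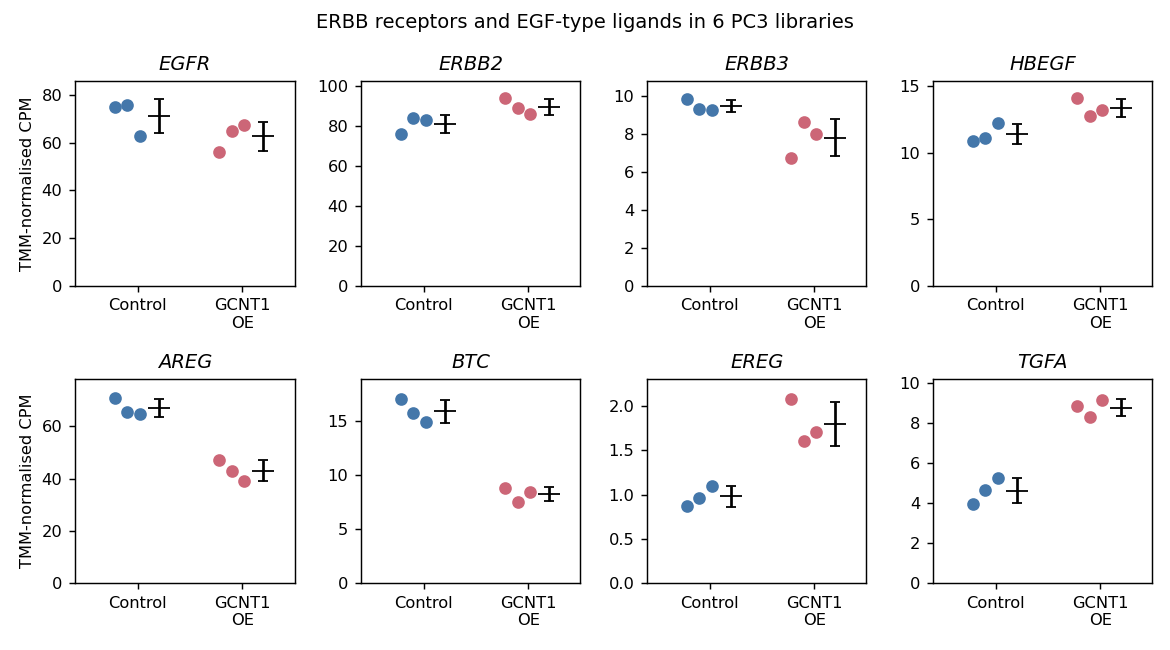
TMM-normalised CPM of the 8 measured members (y axis, starting at 0) in 3 control libraries (blue) and 3 GCNT1 overexpressing libraries (red). Points are libraries in the order of their replicate numbers and black bars are the mean ± SD. The groups overlap for EGFR alone, while 62.5% of all genes show no overlap. AREG and BTC lie lower and EREG and TGFA higher in the overexpressing libraries.

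EGFR, the receptor for most of these ligands, lies on chromosome 7 of hg38 from 55019017 to 55211628. The control libraries held 943, 941 and 742 EGFR reads and the overexpressing libraries 647, 889 and 953. In CPM this was 71.1 ± 7.22 against 62.7 ± 6.07 (SD, n = 3 each). The groups overlapped, since the lowest control library, replicate 3, was below replicates 2 and 3 of the overexpressing lines. The log2 fold change was -0.18 with a 95% interval from -0.36 to 0.0027 (edgeR adjusted p = 0.0844). Without control replicate 3 it was -0.26 with an adjusted p of 0.0127 in the same edgeR test, still under the fold minimum. This was the only 1 of 14 alternatives with an adjusted p under 0.05. Without GCNT1 overexpression replicate 1 the log2 fold change was -0.11 (edgeR adjusted p = 0.235). Around EGFR, the median log2 fold change of its 50 nearest neighbours in the table was -0.19. EGFR-AS1 overlaps EGFR on the opposite strand, and the sources used here do not say whether the counting used strand.

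ERBB2, the ligand-less partner, lies on chromosome 17 from 39688094 to 39728658. Its counts were 955, 1048 and 985 in controls and 1090, 1222 and 1218 with overexpression. After scaling, every overexpressing library was above every control library, with 81.1 ± 4.56 CPM against 89.8 ± 4.00 CPM (SD, n = 3 each). Such a separation, in either direction, was seen in 62.5% of all genes, a share that stands beside each separation of a gene given below. The log2 fold change of 0.15 had a 95% interval from 0.016 to 0.28, and the edgeR adjusted p was 0.0524. With library size alone the log2 fold change was 0.20 and the edgeR adjusted p 0.00928, still under the fold minimum. This was the only 1 of 14 alternatives with an adjusted p under 0.05. Without control replicate 1 the log2 fold change was 0.11 (edgeR adjusted p = 0.178). PGAP3 and MIEN1 overlap ERBB2 on the opposite strand.

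ERBB3, the kinase-impaired receptor of neuregulins, lies on chromosome 12 from 56080108 to 56103505. It was the least counted of the receptors, with 124, 116 and 110 reads in controls and 78, 119 and 113 with overexpression. The level was 9.49 ± 0.313 CPM in controls and 7.80 ± 0.978 CPM with overexpression (SD, n = 3 each), and all overexpressing libraries were below all controls. The log2 fold change was -0.27, with a 95% interval from -0.53 to -0.019 and an edgeR adjusted p of 0.0617. In edgeR without GCNT1 overexpression replicate 2 it was -0.35 with an adjusted p of 0.0418, the only 1 of 14 alternatives under 0.05. Without GCNT1 overexpression replicate 1 it was -0.19 (edgeR adjusted p = 0.196). Its 50 nearest neighbours in the table had a median of 0.32, of the opposite sign.

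Levels of different genes can be compared only per length, so the CPM of each gene was divided by the kilobases of its merged exons in GENCODE 44. Per kilobase, ERBB2 was the most abundant receptor in every library, EGFR came next and ERBB3 last. In controls the levels were 7.86 ± 0.441 for ERBB2, 4.46 ± 0.453 for EGFR and 0.810 ± 0.0268 for ERBB3 (CPM per kb, SD, n = 3). With overexpression they were 8.70 ± 0.387, 3.93 ± 0.381 and 0.666 ± 0.0835 in the same order, and no receptor overlapped its neighbour in this order. The 3 receptors summed to 12.8 to 13.7 CPM per kb in controls and 13.2 to 13.4 with overexpression, values that overlapped.

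As a share of that sum, ERBB2 held 57.0%, 59.6% and 63.0% in the control libraries and 69.1%, 64.2% and 63.0% in the overexpressing libraries. The lowest overexpressing library was just below the highest control. EGFR held 33.9 ± 2.91% in controls and 29.6 ± 2.74% with overexpression, and these groups overlapped as well. The share of ERBB3 was 6.18 ± 0.358% in controls and 5.01 ± 0.591% with overexpression (SD, n = 3 each), with no overlap. Shares were compared by an exact two-sided permutation test over 8 shares, receptors and ligands together, in which 3 libraries against 3 cannot go below p = 0.1. The exact p was 0.2 for ERBB2 and for EGFR and 0.1 for ERBB3 (adjusted over the 8 shares, exact p = 0.2, 0.2 and 0.133).

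**Figure D2:**
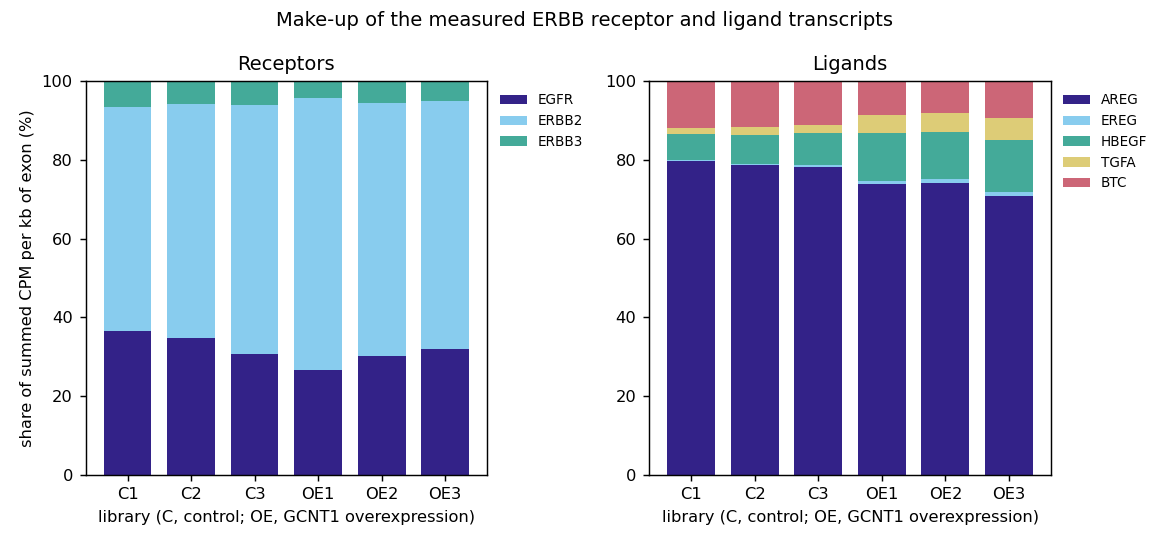
Share of each gene in the summed CPM per kb of merged exon (y axis, percent) for the 3 measured receptors and the 5 measured ligands, by library (C, control; OE, GCNT1 overexpression). AREG holds 78.2% to 79.6% of the ligand sum in controls and 70.9% to 74.2% with overexpression, while the parts of HBEGF and TGFA are wider.

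Among the ligands, AREG (amphiregulin) fell and was by far the most abundant. AREG lies on chromosome 4 from 74445136 to 74455005. The control libraries held 890, 812 and 765 AREG reads and the overexpressing libraries 545, 588 and 552, so that every overexpressing library was below every control. The mean was 66.9 ± 3.33 CPM against 43.0 ± 3.99 CPM (SD, n = 3 each). AREG was thus 1.56-fold lower, with a log2 fold change of -0.64 and a standard error of 0.07 (edgeR adjusted p = 7.32e-06). This value is close to the fold minimum. Without GCNT1 overexpression replicate 3 it was -0.576 and AREG was no longer called, although the adjusted p was under the threshold in all 14 alternatives.

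BTC (betacellulin) showed the largest fall of the members. It lies on the same chromosome from 74744759 to 74794523, and had 214, 196 and 176 reads in controls against 102, 103 and 119 with overexpression. The level was 15.9 ± 1.07 CPM in controls and 8.25 ± 0.677 CPM with overexpression (SD, n = 3 each). The groups were far apart, and the log2 fold change was -0.95 (standard error 0.10, edgeR adjusted p = 4.96e-06), or 1.93-fold lower. BTC was called in all 14 alternatives in which its fold change was recomputed, and it also passed a test against the fold minimum itself (glmTreat in edgeR, adjusted p = 0.00435), as did TGFA but neither AREG nor EREG.

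TGFA (transforming growth factor alpha), which also binds EGFR, rose. It lies on chromosome 2 from 70447284 to 70553826. Its counts were 50, 58 and 62 in controls and 102, 114 and 129 with overexpression. The level rose from 4.63 ± 0.636 to 8.75 ± 0.425 CPM (SD, n = 3 each), 1.89-fold. The lowest overexpressing library stood well above the highest control, with a log2 fold change of 0.92 (standard error 0.13, edgeR adjusted p = 6.14e-05) that was called in all 14 alternatives. TGFA-IT1, an annotated transcript of the same strand, overlaps TGFA. The median log2 fold change around TGFA, over its 50 nearest neighbours in the table, was 0.17.

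EREG (epiregulin) rose as well, but it had a row only through the group in which it was high. The table holds genes with at least 1.01 CPM in 3 or more libraries, which the control libraries of EREG alone did not reach, so its call cannot be separated from that limit, and without EREG the calls were 3 of 7 measured members. It lies on chromosome 4 from 74365145 to 74388749. Only 11, 12 and 13 reads were counted in the control libraries and 24, 22 and 24 in the overexpressing libraries. The groups did not overlap, with 0.979 ± 0.114 CPM against 1.79 ± 0.249 CPM (SD, n = 3 each). The log2 fold change was 0.86 (standard error 0.25, edgeR adjusted p = 0.0102). From the 36 control reads and the 70 overexpression reads together the ratio was 1.82, with an exact 95% interval for counting error alone from 1.20 to 2.80. DESeq2 gave EREG a log2 fold change of 0.87 and an adjusted p of 0.0757, so that it was not called there, and over the alternatives the adjusted p ran from 0.00666 to 0.0757 (edgeR, limma-voom and DESeq2).

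HBEGF (heparin-binding EGF-like growth factor) was the measured ligand that was not called. It lies on chromosome 5 from 140332843 to 140346603 with 137, 138 and 145 reads in controls against 163, 175 and 187 with overexpression. All overexpressing libraries were above all controls, at 13.4 ± 0.679 CPM against 11.4 ± 0.746 CPM (SD, n = 3 each). The log2 fold change was 0.23 with a 95% interval from 0.018 to 0.43 (edgeR adjusted p = 0.0592). Its adjusted p in edgeR was 0.0206 with library size alone and 0.0426 without control replicate 3, with log2 fold changes of 0.28 and 0.28. These were the only 2 of 14 alternatives with an adjusted p under 0.05, and the highest was 0.194 in DESeq2. The neighbourhood of HBEGF went the other way, with a median of -0.18 over its 50 nearest genes.

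**Figure D3:**
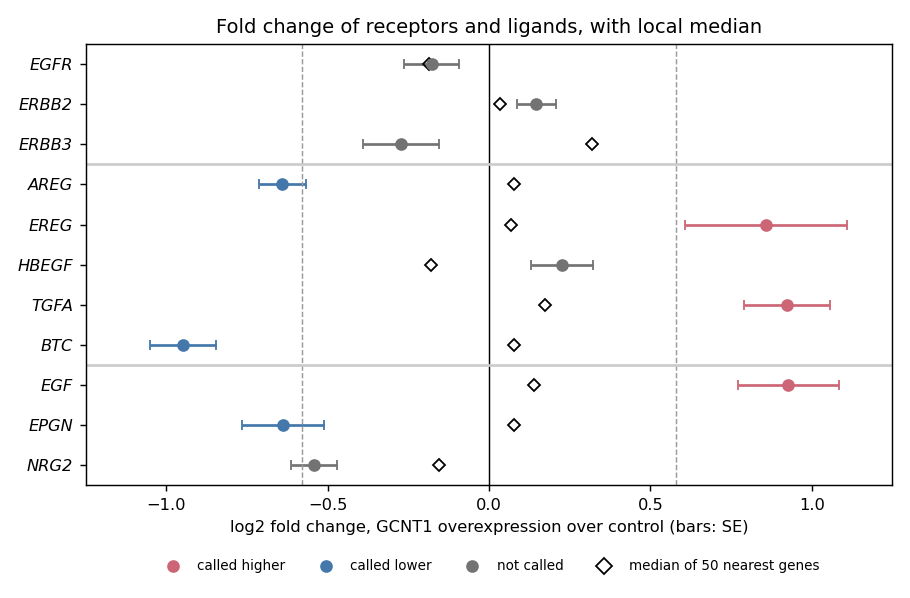
Log2 fold change of GCNT1 overexpression over control (x axis) from edgeR, with bars of 1 standard error, for the receptors (top), the member ligands (middle) and the other EGF family ligands (bottom). Dashed lines mark the fold minimum of 0.58 and diamonds the median of the 50 nearest analysed genes; the 4 called members lie from -0.95 to 0.92, and no diamond of a called member is beyond 0.17.

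Per kilobase of exon, the ligands in controls ran in the order AREG, BTC, HBEGF, TGFA and EREG. Their levels were 40.7 ± 2.03 for AREG, 5.98 ± 0.402 for BTC, 3.82 ± 0.249 for HBEGF, 0.941 ± 0.129 for TGFA and 0.171 ± 0.0199 for EREG (CPM per kb, SD, n = 3). With overexpression AREG was at 26.2 ± 2.43, HBEGF at 4.47 ± 0.227, BTC at 3.11 ± 0.255, TGFA at 1.78 ± 0.0865 and EREG at 0.314 ± 0.0436. BTC and HBEGF thus changed places, and in neither group did the libraries of these ligands overlap. The order of BTC and HBEGF within each group was the same with the longest transcript as length, where BTC had 5.98 and HBEGF 4.84 CPM per kb in controls and BTC 3.11 and HBEGF 5.67 with overexpression.

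The 5 ligands summed to 50.4 to 54.1 CPM per kb in controls and 33.6 to 38.9 with overexpression, a sum that follows AREG. The share of AREG was 78.8 ± 0.723% in controls and 73.0 ± 1.79% with overexpression (SD, n = 3 each). BTC went from 11.6 ± 0.387% to 8.69 ± 0.718%. HBEGF went from 7.41 ± 0.707% to 12.5 ± 0.617%, TGFA from 1.83 ± 0.314% to 4.98 ± 0.487% and EREG from 0.333 ± 0.0496% to 0.873 ± 0.0689%. For each of these 5 shares the groups did not overlap, and the exact permutation p was 0.1, the smallest possible (adjusted over the 8 shares, exact p = 0.133). Shares of 1 sum are tied to one another, so the 5 tests are not independent, and the share of EREG carries the reserve given for its call.

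AREG, EREG and BTC are neighbours on chromosome 4, in band 4q13. Of these 3 members AREG and BTC fell and EREG was higher. The reserve given above holds, that EREG had a row only through the overexpressing libraries and was not called in DESeq2. EREG starts 80.0 kb before AREG, with no other analysed gene between them. BTC lies on the minus strand, and its nearer end, the 3′ end, is 290 kb past the end of AREG, again with none between. EPGN, the gene of the EGF family ligand epigen, lies on the other side of EREG. Along the chromosome the log2 fold changes were -0.64 for EPGN, 0.86 for EREG, -0.64 for AREG and -0.95 for BTC. The outer neighbours of this cluster were MTHFD2L, a mitochondrial folate enzyme, and PARM1, a mucin-like protein of the prostate. MTHFD2L had 107, 118 and 93 reads in controls against 96, 123 and 144 with overexpression, and its log2 fold change was 0.09 (edgeR adjusted p = 0.534). The CXCL genes beyond MTHFD2L, named after their values were seen, also went both ways. CXCL8, CXCL2 and CXCL3 were called higher (log2 fold change 1.24, 1.51 and 0.76), CXCL6 was called lower (-0.83) and CXCL1 was not called (0.56). CXCL2 and CXCL3 had a row only through the overexpressing libraries, so their calls are not independent of the table's limit. PARM1 had 260, 273 and 246 reads in controls against 1, 3 and 3 with overexpression. The pooled ratio for PARM1 was 119-fold lower, with an exact 95% counting interval from 57.5 to 297 (edgeR adjusted p = 1.51e-11). PARM1 had a row only through the controls, in which it was high, so this call cannot be separated from the table's lower limit. Over the 50 nearest analysed genes the median was 0.08 around AREG and around BTC and 0.07 around EREG.

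**Figure D4:**
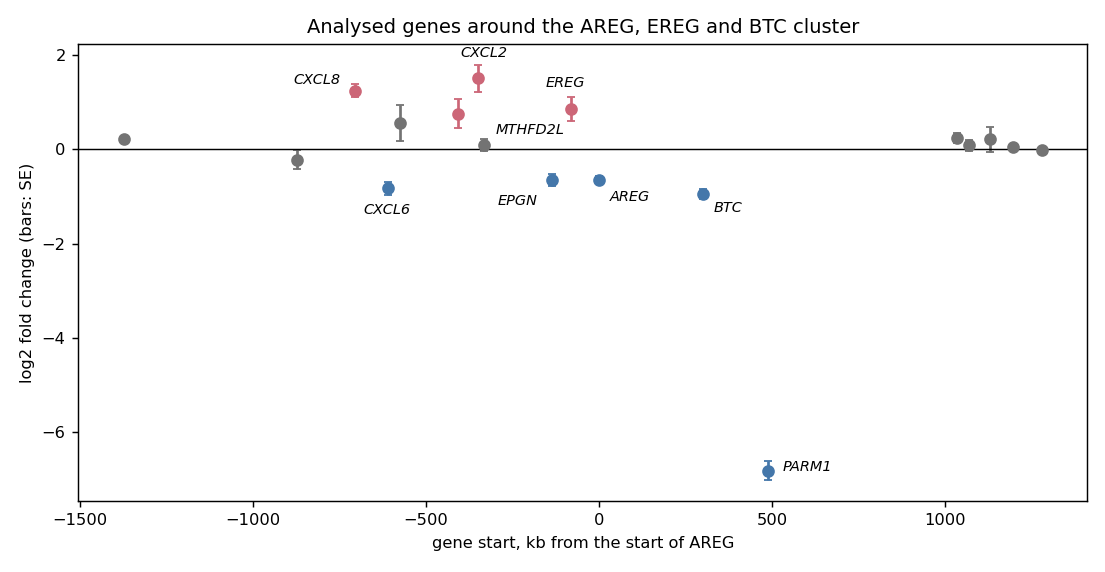
Log2 fold change with bars of 1 standard error (y axis) of the analysed genes around AREG, by the distance of the gene start from the start of AREG in kb (x axis). Gene start here is the lower coordinate on either strand. Red marks genes called higher, blue genes called lower and grey genes not called; EREG lies at 0.86 between EPGN and AREG, both at -0.64, and PARM1 lies at -6.82.

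The promoters of the 4 called ligands are shown because these are the members that passed both thresholds, EREG with the reserve given above, and 3 of them are neighbours. Each is the 250 bases before the RefSeq start (GRCh38.p14, the assembly of hg38), 5′ to 3′ on the strand of the gene, and promoter windows were found for 10 of the 8 members and 3 other EGF family ligands sought, ERBB3 being the exception. Capitals mark matches on either strand to 5 motifs, the cyclic AMP response element (TGACGTCA), the AP-1 site (TGANTCA), the TATA box (TATAAA), the GC box (GGGCGG) and the E2 box bound by ZEB and SNAIL factors (CACCTG).
AREG, chr4:74444886-74445135, plus strand: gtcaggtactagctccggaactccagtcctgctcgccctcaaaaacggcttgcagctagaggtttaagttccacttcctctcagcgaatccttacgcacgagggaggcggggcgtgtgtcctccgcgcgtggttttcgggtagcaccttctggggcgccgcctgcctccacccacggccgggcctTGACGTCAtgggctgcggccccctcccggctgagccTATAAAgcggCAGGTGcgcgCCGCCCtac
EREG, chr4:74364895-74365144, plus strand: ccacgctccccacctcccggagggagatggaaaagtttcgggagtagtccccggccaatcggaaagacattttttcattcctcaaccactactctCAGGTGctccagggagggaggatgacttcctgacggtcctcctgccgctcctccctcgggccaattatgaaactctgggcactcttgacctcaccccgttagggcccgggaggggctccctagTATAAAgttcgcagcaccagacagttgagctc
BTC, chr4:74794524-74794773, minus strand: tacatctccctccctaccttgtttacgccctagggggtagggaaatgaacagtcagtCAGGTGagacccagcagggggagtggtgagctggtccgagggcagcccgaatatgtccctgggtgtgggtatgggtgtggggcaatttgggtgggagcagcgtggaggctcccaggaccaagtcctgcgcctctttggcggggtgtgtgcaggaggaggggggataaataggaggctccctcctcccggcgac
TGFA, chr2:70553827-70554076, minus strand: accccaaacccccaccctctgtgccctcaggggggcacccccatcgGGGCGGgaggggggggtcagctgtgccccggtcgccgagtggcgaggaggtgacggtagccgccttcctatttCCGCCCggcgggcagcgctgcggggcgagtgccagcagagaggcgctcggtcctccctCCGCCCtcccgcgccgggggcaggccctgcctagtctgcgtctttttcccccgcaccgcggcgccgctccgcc

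AREG alone of the 10 windows held the cyclic AMP response element, 65 to 58 bases before the start, and 1.65% of 35116 RefSeq promoter windows of this length hold it. The TATA box was present in AREG and EREG, with its first base 29 and 32 bases before the start, as well as in EPGN and in 10.7% of all windows. An E2 box was present in AREG, EREG, BTC and HBEGF, against 17.5% of all windows. TGFA held 3 GC boxes and none of the other 4 motifs, and 42.6% of all windows held a GC box. The windows of AREG and EREG thus shared the TATA box and the E2 box. A match describes the letters and is not evidence of binding.

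The other EGF family ligands with a row were EGF, EPGN and NRG2, while NRG3 and NRG4 had none. EGF, the founding ligand of EGFR, had 47, 55 and 45 reads in controls against 74, 121 and 105 with overexpression, and rose 1.90-fold (log2 fold change 0.93, standard error 0.16, edgeR adjusted p = 0.000209). EPGN, which binds EGFR, had 118, 144 and 108 reads in controls against 69, 93 and 92 with overexpression, and fell by 0.64 on the log2 scale (standard error 0.13, edgeR adjusted p = 0.000805). Without control replicate 2 the log2 fold change of EPGN was -0.52, under the fold minimum. NRG2, a neuregulin, had 31.2 ± 0.120 CPM in controls and 21.4 ± 0.854 CPM with overexpression (SD, n = 3 each). Its log2 fold change of -0.54 passed the adjusted p threshold (edgeR adjusted p = 2.37e-05) but not the fold minimum. ENSG00000250692 overlaps NRG2 on the opposite strand. Per kilobase NRG2 was at 6.78 ± 0.0260 in controls, above BTC at 5.98 ± 0.402.

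Of 15 genes for ligand processing (ADAM sheddases, rhomboid proteins, convertases, BACE1 and TIMP3), 11 had a row and 1 was called, or 9.09%, beside 19.3% of all genes. This was FURIN, a convertase that removes the prodomains of ADAM proteases, which rose from 50.5 ± 2.67 to 91.0 ± 5.21 CPM (log2 fold change 0.85, standard error 0.06, edgeR adjusted p = 1.54e-07). Another 5 genes passed the adjusted p threshold alone, 1 higher and 4 lower, and 57.6% of all genes passed it at any fold change. The median log2 fold change of the list was -0.03, or 0.03 with library size alone, beside 0.00095 for all genes, or 0.0587 with library size alone.

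Adaptors and proximal effectors, which bind the phosphorylated receptors or their partners, had 20 of 24 genes with a row and 6 called, 2 higher and 4 lower. That is 30%, beside 19.3% of all genes. NCK2, an SH2 and SH3 adaptor, fell from 58.1 ± 3.64 to 27.7 ± 2.26 CPM (log2 fold change -1.07, edgeR adjusted p = 8.87e-08). SHC1, the adaptor that links receptors to GRB2 and RAS, fell from 262 ± 3.32 to 171 ± 5.29 CPM (log2 fold change -0.61, edgeR adjusted p = 1.44e-07), and with library size alone the fold change was -0.55, under the fold minimum. The guanine nucleotide exchange factors VAV2 and VAV3 moved in opposite directions. VAV2 rose from 47.9 ± 2.48 to 76.3 ± 5.31 CPM (log2 fold change 0.67, edgeR adjusted p = 2.29e-06), in a neighbourhood whose 50 nearest genes had a median of 0.52. VAV3 had 31, 50 and 39 reads in controls against 2, 5 and 2 with overexpression, 14.3-fold lower with an exact 95% counting interval from 7.27 to 31.9 (edgeR adjusted p = 1.77e-06). VAV3 reached the table's limit of 1.01 CPM in 3 libraries only through the controls, in which it was high, so its call is not independent of that limit. The remaining calls, named after their values were seen, were GRB7, an adaptor encoded near ERBB2, with a log2 fold change of 1.22, and PLCG2, a phospholipase, with -0.79. The list median was -0.21.

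Negative regulators and degradation genes had 26 of 27 genes with a row and 3 called, or 11.5%, beside 19.3% of all genes. LRIG1, a membrane protein that promotes the degradation of ERBB receptors, had 60, 85 and 80 reads in controls against 2, 2 and 3 with overexpression. That is 34.4-fold lower with an exact 95% counting interval from 16.4 to 86.5 (edgeR adjusted p = 2.95e-08). LRIG1, too, had a row only through the control libraries, and the same reserve holds for its call. Its relative LRIG3 rose from 6.59 ± 0.519 to 10.4 ± 0.424 CPM (log2 fold change 0.65, edgeR adjusted p = 0.000253). STAM, an endosomal sorting protein, rose from 24.2 ± 1.69 to 38.2 ± 3.03 CPM (log2 fold change 0.66, edgeR adjusted p = 1.48e-05), with a median of 0.47 over its 50 nearest genes. By the adjusted p alone 7 genes of this list were higher and 10 lower, beside 28.3% and 29.3% of all genes. With library size alone this turned to 9 higher and 7 lower, so no direction is given for the list.

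None of the 13 RAS-RAF-MEK-ERK genes with a row was called in edgeR, limma-voom or DESeq2, and 6 had an unadjusted edgeR p under 0.05. At the adjusted p alone, 6 were lower and 0 higher, against 29.3% of all genes lower and 28.3% higher, and with library size alone 5 were lower and 1 higher. Of the PI3K-AKT core, 17 of 18 genes had a row and 3 were called. PIK3R3, a regulatory subunit of PI3 kinase, fell from 101 ± 7.90 to 56.0 ± 4.33 CPM (log2 fold change -0.84, edgeR adjusted p = 5.52e-07). PIK3CD, a catalytic subunit, fell from 12.3 ± 0.696 to 6.91 ± 0.877 CPM (log2 fold change -0.83, edgeR adjusted p = 4.73e-05). INPP4B, a phosphatase of PI3 kinase products, rose from 2.57 ± 0.418 to 5.62 ± 0.58 CPM (log2 fold change 1.13, edgeR adjusted p = 8.83e-05). With library size alone 2 of these genes were called higher and 2 lower. Over the 6 lists, 15 of 90 genes with a row were called, or 16.7%, beside 19.3% of all genes, with VAV3 and LRIG1 among the 15.

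**Figure D5:**
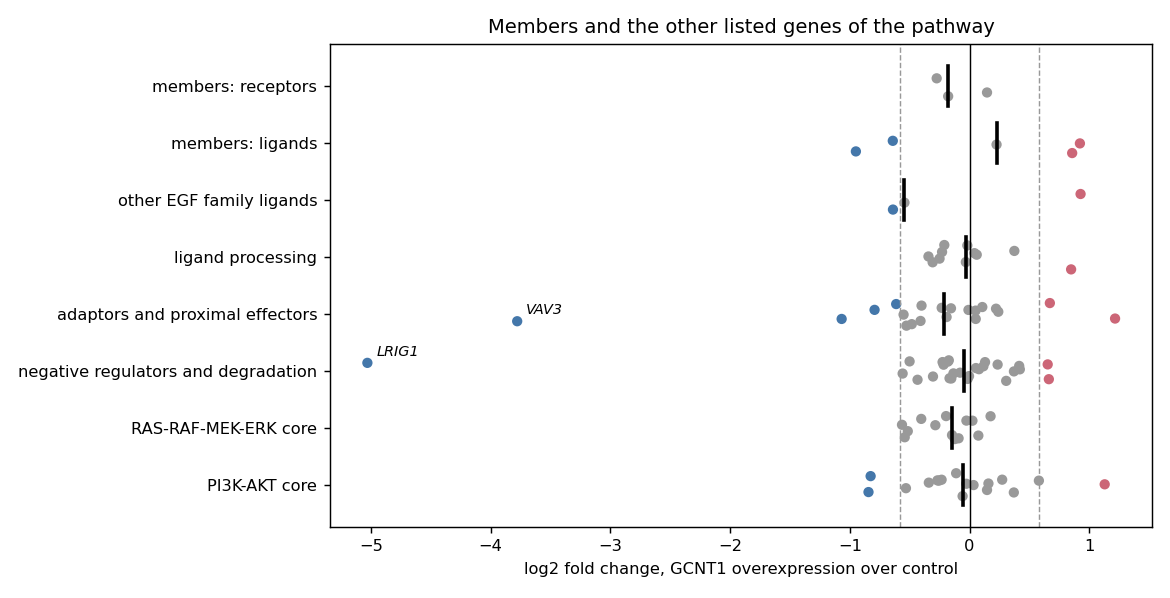
Log2 fold change (x axis) of every member and listed pathway gene with a row, by list (y axis, with random vertical spread). Black lines are list medians, dashed lines the fold minimum of 0.58, and red and blue points the genes called higher and lower; LRIG1 at -5.03 and VAV3 at -3.78 lie far below the rest, and the RAS-RAF-MEK-ERK list has no called gene.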

How the data were processed

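RNA of 3 control and 3 GCNT1 overexpressing PC3 lines was made into stranded mRNA libraries and read singly over 75 bp. The values the authors deposited are raw counts per Entrez gene, 1 column a library, made in Galaxy 22.01 by Cutadapt, HISAT2 on hg38 and featureCounts. The annotation, strand setting and low-count filter are not given in the sources used here. Every gene had at least 1.01 CPM in 3 or more libraries.

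Symbols and positions came from RefSeq (GRCh38.p14, 12661 of 12703 identifiers matched), and lengths and overlaps from GENCODE 44. The test was the quasi-likelihood fit of edgeR 4.0.16 (R 4.3.3) on group, after TMM scaling and filterByExpr, with adjustment over all 12703 genes. Totals of 11392213 to 13825704 reads put 3 counts at 0.217 to 0.263 CPM. Intervals from counts cover counting error only. Libraries of a group differed by more than sampling noise (chi-square per degree of freedom 1.65 to 5.57). Permutation tests used scipy 1.17.1. Alternatives were limma-voom (limma 3.58.1), DESeq2 1.42.0, other scalings and filters (0.5 CPM, 10 counts), glmTreat, the replicate block and each library left out. P-values measure the spread between these lines.

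The members, gene lists and rule for named genes (all members, other EGF family ligands, up to 4 called genes a list by adjusted p, and 4q13 neighbours) were chosen with earlier results of these data known. Some marker genes are not reported here.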

Additional observations from a re-analysis of the deposited data

How the results depend on the processing

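The count of called members was 4 in the reported edgeR fit and ranged from 3 to 4 with each library left out, the lower value being that without GCNT1 overexpression replicate 3. A single test against the fold minimum (glmTreat) called 2 members, BTC and TGFA, and 7 of the 15 pathway genes, beside 1392 in place of 2457 genes overall. With each library left out 14 to 20 pathway genes were called. The adjusted p alone called 4 members and 7314 genes. DESeq2 called 3 members, without EREG. The replicate block called 4 members and 15 pathway genes, and changed no other call of a member. Same-numbered libraries did not deviate together (correlations of -0.27, -0.0024 and -0.11). With 3 libraries a group, this cannot show whether the numbers pair the lines. With the longest transcript as length the BTC share differed by -2.26 in place of -2.90 percentage points, by construction of the length. No member reversed its sign under any of the 14 alternatives. EREG had 11 to 24 reads a library, the fewest of the members.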
